A study of Mus musculus with 8 samples.

Results

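Myosins are the motors that walk along or pull on actin filaments. Genes of myosin heavy chains, myosin light chains and light chain kinases, picked by symbol, were followed in the P1 cortex, in control and in dcKO_Nex-Cre mice. Members were the protein-coding genes whose symbol is Myh with a number (and optionally b), Myo or Myl with a number and an optional letter, or Mylk, Mylk2 or Mylk3, and whose raw counts averaged at least 10 over the 8 libraries. Of 48709 genes listed in each file, 53 carried such a symbol and 36 reached the count minimum. The members are 29 heavy chains, 6 light chains and the kinase *Mylk*.

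RNA of whole cortical tissue at postnatal day 1 was sequenced from 4 control and 4 dcKO_Nex-Cre samples, which the labels call Control and Mutant. The name of the Cre line and the genotypes come from the paper's methods: dcKO_Nex-Cre mice carry floxed alleles of BAF155 (*Smarcc1*) and BAF170 (*Smarcc2*) together with Nex-Cre, a Cre active in postmitotic principal neurons, and controls were heterozygous for both floxed genes (BAF155fl/+, BAF170fl/+) and lacked Cre, all on the C57BL6/J background. Cells without Nex-Cre activity, such as glia and interneurons, keep both genes in the dcKO_Nex-Cre cortex. Nothing in the labels says whether each sample came from its own animal, so that p-values measure the spread between these samples.

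A myosin heavy chain holds the motor head, a neck that binds light chains and a tail that sets what the motor does. Nonmuscle myosin II assembles into filaments that contract actin, and in migrating neurons it is known for pulling the centrosome and nucleus forward and for shaping the leading process. Its activity is switched by phosphorylation of the regulatory light chain, while the other, unconventional classes carry cargo, hold membranes to actin or extend filopodia.

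Both targeted genes were lower in every dcKO_Nex-Cre library than in any control library. *Smarcc2* was left at 56.9% and *Smarcc1* at 69.2% of the control level, with log2 fold changes of -0.81 (SE 0.09, adjusted p = 0.00267) and -0.53 (SE 0.10, adjusted p = 0.0348) from edgeR. Total counts were 17958641 to 35191912 per library. Control replicate 2 and dcKO_Nex-Cre replicate 4 stood apart from the other libraries: they had the fewest counts (18737230 and 17958641) and mitochondrial shares of 6.87% and 6.15%, against 2.33% to 4.24% in the rest. By the tags in the file names, the 4 controls and dcKO_Nex-Cre replicates 1 and 2 ran on lane 2 and dcKO_Nex-Cre replicates 3 and 4 on lane 8, so lane 8 holds no control. The summed level of striatal markers was 166.5 CPM in dcKO_Nex-Cre replicate 2, against 57.8 to 82.5 CPM in the other libraries, and that of meningeal markers 129 CPM against 40.6 to 88.6 CPM. Choroid plexus markers summed to 22.3 to 1336 CPM in the control and to 4.10 to 557 CPM in the dcKO_Nex-Cre libraries. Calls among the members and their partner genes that change without control replicate 2 or dcKO_Nex-Cre replicate 4 are given with and without them.

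No myosin gene passed the adjusted threshold of 0.05 in the dcKO_Nex-Cre cortex. By edgeR's quasi-likelihood test with Benjamini-Hochberg adjustment, 0 of 36 members were called, while 0.884% of all 16287 genes tested were (83 lower and 61 higher). DESeq2's Wald test and limma-voom called 0 members as well, and each put the same 3 members and *Myo19* at an unadjusted p under 0.05. In edgeR's fit there were 3 such members, *Myl6* and *Myo18b* lower and *Myo1d* higher, which is 8.33% of the members against 13.6% of all genes tested (7.05% lower and 6.59% higher). *Myo18b* was the only member whose groups did not overlap, and it was lower. Among all genes tested, 4.01% were lower and 3.99% higher without overlap, so the member shares lay under those of all genes. The median log2 fold change of the members was 0.03, beside 0.004 for all genes tested, and 23 members were above 0. The 95% interval of the log2 fold change lay within ±0.5 (a 1.41-fold change) for 17 members and within ±1 for 31, and for 11 members it was wider than 1 log2 unit.

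**Figure D1:**
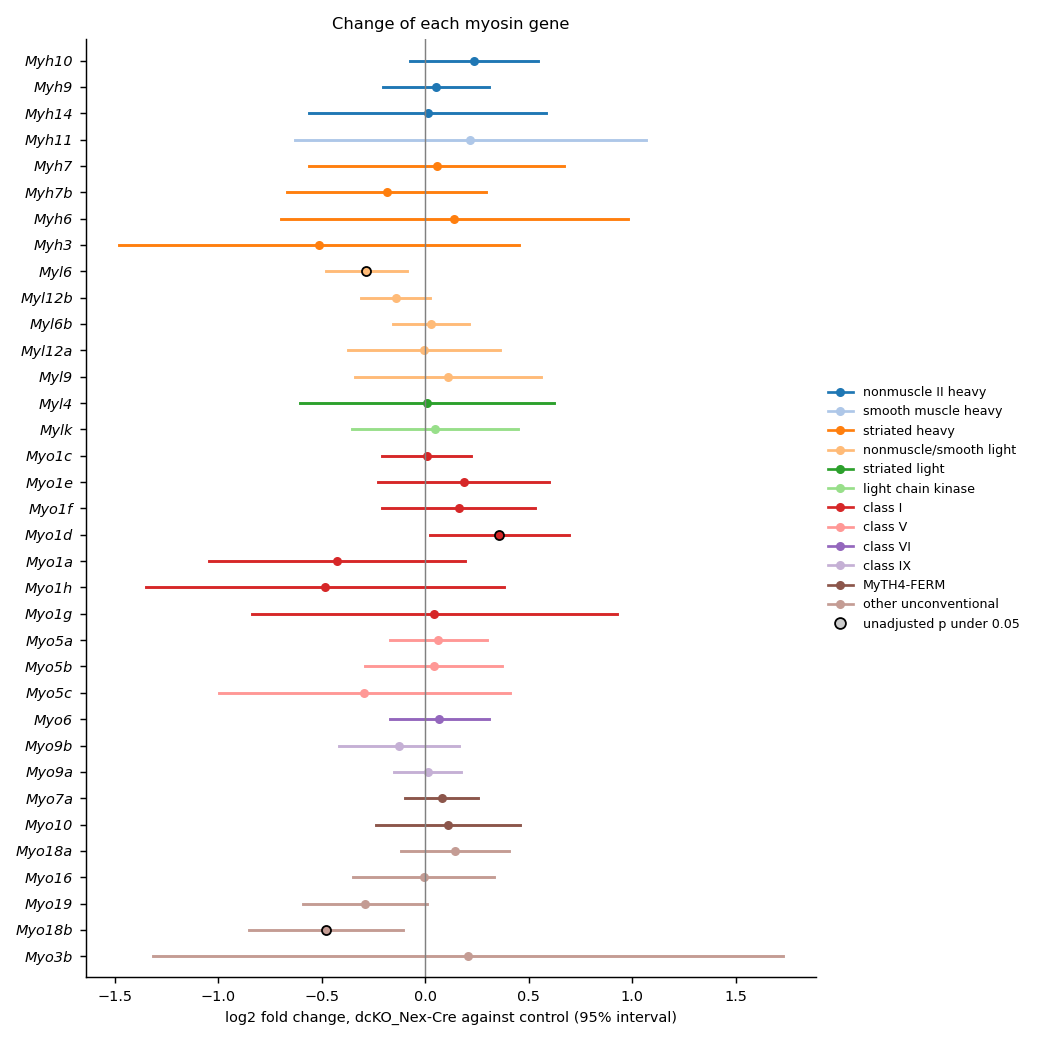
Log2 fold change of 35 members (dots) with its 95% interval (lines) from edgeR, grouped and coloured by role; positive values are higher in dcKO_Nex-Cre. The intervals of *Myl6*, *Myo18b* and *Myo1d*, ringed, lie to one side of 0, and those of the other members cross it.

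Levels of different genes are compared here as CPM (counts scaled by edgeR to a common library size with TMM factors) divided by the length in kilobases of the longest principal transcript. In the control cortex 11 members were at 10 CPM per kb or more, 10 between 1 and 10, and 15 under 1. The essential light chain *Myl6* had the highest level, 119 ± 5.35 CPM per kb (SD, n = 4), followed by the regulatory light chain *Myl12b* at 71.7 ± 3.13. Below them came *Myo5a*, a carrier of organelles into dendritic spines, at 54.7 ± 2.97 and the heavy chain of nonmuscle myosin IIB, *Myh10*, at 39.4 ± 3.09. The gaps between these 4 genes were wider than their SDs, which do not cover the choice of length. All annotated exons together span 3187 bases for *Myl6*, against 665 in the transcript used, and 14803 against 6372 for *Myo5a*. The order of these 4 genes therefore depends on that choice, as do the summed levels per kb and the shares given below. *Myl6b* followed at 28.5 ± 0.99, and *Myo18a* at 21.2 ± 0.99. Further down the order, *Myl12a* at 14.1 ± 2.05, *Myo9b* at 14.1 ± 2.38 and *Myo16* at 12.6 ± 0.73 CPM per kb did not differ beyond their spread. Muscle heavy chains made up the bottom of the order together with *Myo5c*, *Myo1g*, *Myo1h* and *Myo3b*.

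**Figure D2:**
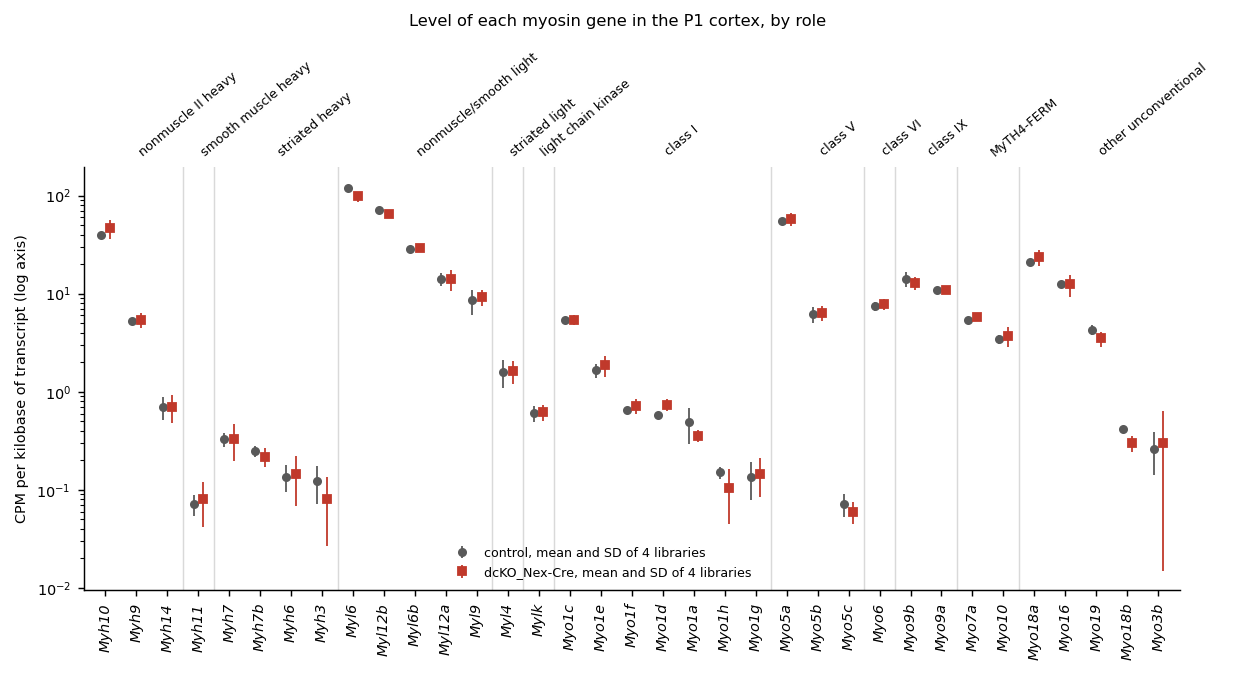
Mean level of 35 members in CPM per kilobase of transcript (log axis) with the SD of 4 libraries per group, control in grey and dcKO_Nex-Cre in red, ordered within each role by the control level. Levels run from 0.07 (*Myh11* and *Myo5c*) to 119 (*Myl6*) in the control; lower error bars that would reach 0 or below are drawn short.

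*Myh10*, the heavy chain of nonmuscle myosin IIB and the main one of neurons, took most of the nonmuscle myosin II heavy chain level. It was at 315, 281, 336 and 296 CPM in control replicates 1 to 4 and at 452, 364, 367 and 262 CPM in dcKO_Nex-Cre replicates 1 to 4. The first 3 dcKO_Nex-Cre libraries were above every control, and replicate 4 was below every control. The log2 fold change over all 8 libraries was 0.24 (95% interval -0.07 to 0.54, edgeR adjusted p = 0.476), and the exact permutation test of the CPM gave p = 0.257. Without dcKO_Nex-Cre replicate 4 it was 0.36 with an adjusted p of 0.0426 from edgeR, and *Myh10* was then called higher. Its share of the summed level of the 3 nonmuscle heavy chains was 86.3% to 88.0% in the control and 86.5% to 90.03% in the dcKO_Nex-Cre libraries.

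*Myh9*, the IIA heavy chain found in most dividing and vascular cells, was at 40.2, 39.5, 37.9 and 37.4 CPM in the control and at 42.9, 47.0, 39.8 and 30.4 CPM in dcKO_Nex-Cre replicates 1 to 4. The control range lay inside the dcKO_Nex-Cre range, and the log2 fold change was 0.05 (95% interval -0.21 to 0.31, edgeR adjusted p = 0.872). *Myh14*, the IIC heavy chain, was rare: 5.17, 2.68, 5.13 and 4.93 CPM in the control, and 4.20, 6.32, 4.70 and 2.81 CPM in the dcKO_Nex-Cre cortex. Control replicate 2 and dcKO_Nex-Cre replicate 4 were the low ones of each group. For *Myh14* the log2 fold change was 0.01 with an interval from -0.56 to 0.58, which does not limit a change to under 1.41-fold. Summed over the 3 genes, the heavy chain level was 46.6, 41.8, 49.1 and 43.8 CPM per kb in the control and 64.5, 54.0, 53.2 and 38.2 in the dcKO_Nex-Cre libraries, where replicate 4 was again the lowest of all 8.

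*Myl6* encodes the essential light chain that nonmuscle and smooth muscle myosin II carry on the neck, and it had the smallest p of the members. Its level was 81.6, 79.3, 74.2 and 81.9 CPM in control replicates 1 to 4 and 61.4, 62.7, 59.9 and 76.4 CPM in dcKO_Nex-Cre replicates 1 to 4. The first 3 dcKO_Nex-Cre libraries were below every control, while replicate 4 lay among the controls, above control replicate 3. The log2 fold change was -0.28 (SE 0.09, 95% interval -0.48 to -0.09), with an unadjusted p of 0.00785 and an adjusted p of 0.189 from edgeR. The exact permutation test gave p = 0.0571, against 0.0286 as the smallest that 4 samples against 4 can give. The unadjusted p was under 0.05 in all 8 fits that leave out 1 library, and the adjusted p ranged over all alternatives from 0.00593 to 0.454. It passed the adjusted threshold without dcKO_Nex-Cre replicate 4 (log2 fold change -0.36, adjusted p = 0.0139) and without that library and control replicate 2 (-0.36, adjusted p = 0.00593).

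*Myl6* lies on chromosome 10 of GRCm38 (128490860 to 128494145, minus strand), next to the deleted gene *Smarcc2* (128459248 to 128490482, plus strand). The 3′ ends of both genes face each other with 377 bases between them, and *Smarcc2* was below the controls in all 4 dcKO_Nex-Cre libraries, replicate 4 included (278 against 429 to 486 CPM). Whether this position bears on the *Myl6* value was not tested, and the setting of the count for strand is not given in the sources used here. *Myl6b*, which encodes a second essential light chain, ends 11 bases ahead of the start of *Myl6* on the same strand. Its level was 28.6, 29.0, 28.5 and 30.7 CPM in the control and 33.0, 27.7, 27.4 and 30.9 CPM in the dcKO_Nex-Cre cortex, with overlapping groups and a log2 fold change of 0.03 (95% interval -0.16 to 0.21). *Myl6* made up 80.04% to 81.5% of the summed essential light chain level in the control and 74.2% to 79.2% in the dcKO_Nex-Cre libraries. These shares depend on the lengths used, 665 bases for *Myl6* and 1026 for *Myl6b*, where all annotated exons span 3187 and 1847.

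Promoters were read because serum response factor, which binds the CArG box, is a textbook activator of contractile genes. RefSeq promoters of GRCm38.p6, from 250 bases before to 50 bases after each start, were at hand for 31 of the 36 members, 39 in all. A CArG box, searched on both strands as the only motif, was found in 3 of them (*Myl6*, *Myl9* and *Myo1e*), while 1.63% of all 32851 promoters hold one. These 3 are shown with the box in capitals, each on its gene's strand, because they let the sequence be read beside the levels; the *Myl6* window belongs to a start inside the annotated gene. A match in letters is a description and not a site.
*Myl6*, chr10:128492960-128493259, minus strand: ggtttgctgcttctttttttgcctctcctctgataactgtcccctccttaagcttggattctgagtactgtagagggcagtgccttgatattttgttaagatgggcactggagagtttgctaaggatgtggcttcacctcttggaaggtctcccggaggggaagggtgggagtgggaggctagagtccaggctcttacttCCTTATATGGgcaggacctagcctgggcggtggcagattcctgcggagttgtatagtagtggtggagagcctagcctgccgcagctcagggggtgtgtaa
*Myl9*, chr2:156775214-156775513, plus strand: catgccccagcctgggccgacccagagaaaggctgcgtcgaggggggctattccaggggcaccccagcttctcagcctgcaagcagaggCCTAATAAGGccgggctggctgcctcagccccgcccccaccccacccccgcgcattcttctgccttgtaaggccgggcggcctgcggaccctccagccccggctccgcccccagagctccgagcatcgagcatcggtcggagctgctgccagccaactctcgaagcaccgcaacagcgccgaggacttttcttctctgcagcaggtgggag
*Myo1e*, chr9:70207100-70207399, plus strand: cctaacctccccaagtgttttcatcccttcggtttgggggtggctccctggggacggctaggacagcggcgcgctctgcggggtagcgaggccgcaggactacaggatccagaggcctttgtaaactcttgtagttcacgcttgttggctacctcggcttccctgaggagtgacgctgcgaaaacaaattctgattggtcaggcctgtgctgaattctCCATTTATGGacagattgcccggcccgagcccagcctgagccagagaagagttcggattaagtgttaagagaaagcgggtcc
The boxes begin 50, 161 and 32 bases before the start sites of *Myl6*, *Myl9* and *Myo1e*. These 3 genes did not move one way: *Myl6* was at -0.28, *Myl9* at 0.11 and *Myo1e* at 0.18 on the log2 fold change scale.

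Regulatory light chains, whose phosphorylation switches nonmuscle myosin II on, are *Myl12b*, *Myl12a* and *Myl9*. *Myl12b* was at 153, 158, 159 and 144 CPM in the control and at 155, 131, 132 and 137 CPM in dcKO_Nex-Cre replicates 1 to 4. Replicates 2 to 4 of dcKO_Nex-Cre were below every control and replicate 1 was among the controls. Its log2 fold change was -0.14 (95% interval -0.31 to 0.02, edgeR adjusted p = 0.423). *Myl12a*, whose tandem neighbour *Myl12b* on chromosome 17 is a near copy with which it may share reads, was at 29.1, 25.2, 23.2 and 32.0 CPM in the control and at 20.4, 34.0, 31.9 and 22.8 CPM in the dcKO_Nex-Cre cortex. In both genes the groups overlapped, and the log2 fold change of *Myl12a* was -0.01 (95% interval -0.37 to 0.36).

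*Myl9*, the regulatory light chain best known from smooth muscle, was at 9.57, 6.18, 9.93 and 12.8 CPM in the control and at 9.45, 13.2, 10.4 and 8.53 CPM in the dcKO_Nex-Cre libraries, with overlap and an interval of the log2 fold change from -0.34 to 0.56. Added up, regulatory light chains were at 94.8, 92.4, 94.9 and 95.3 CPM per kb in the control. The same sum was 91.4, 90.5, 87.4 and 83.4 in the dcKO_Nex-Cre libraries, which all lay below the controls. The sum is a description over 3 genes, of which none was called and all had overlapping groups. *Myl12b* made up 70.7% to 80.0% of it in the control and 67.7% to 79.3% in the dcKO_Nex-Cre libraries. Of all single genes tested, 4.01% were lower without overlap. *Mylk*, the calmodulin-dependent kinase of these light chains, was at 5.95, 3.94, 4.13 and 4.85 CPM in the control and at 5.07, 5.71, 4.95 and 3.65 CPM in the dcKO_Nex-Cre cortex. Its groups overlapped, with a log2 fold change of 0.04 (95% interval -0.36 to 0.45). *Mylk2* and *Mylk3*, the kinases of skeletal and cardiac muscle, stayed under the count minimum.

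**Figure D3:**
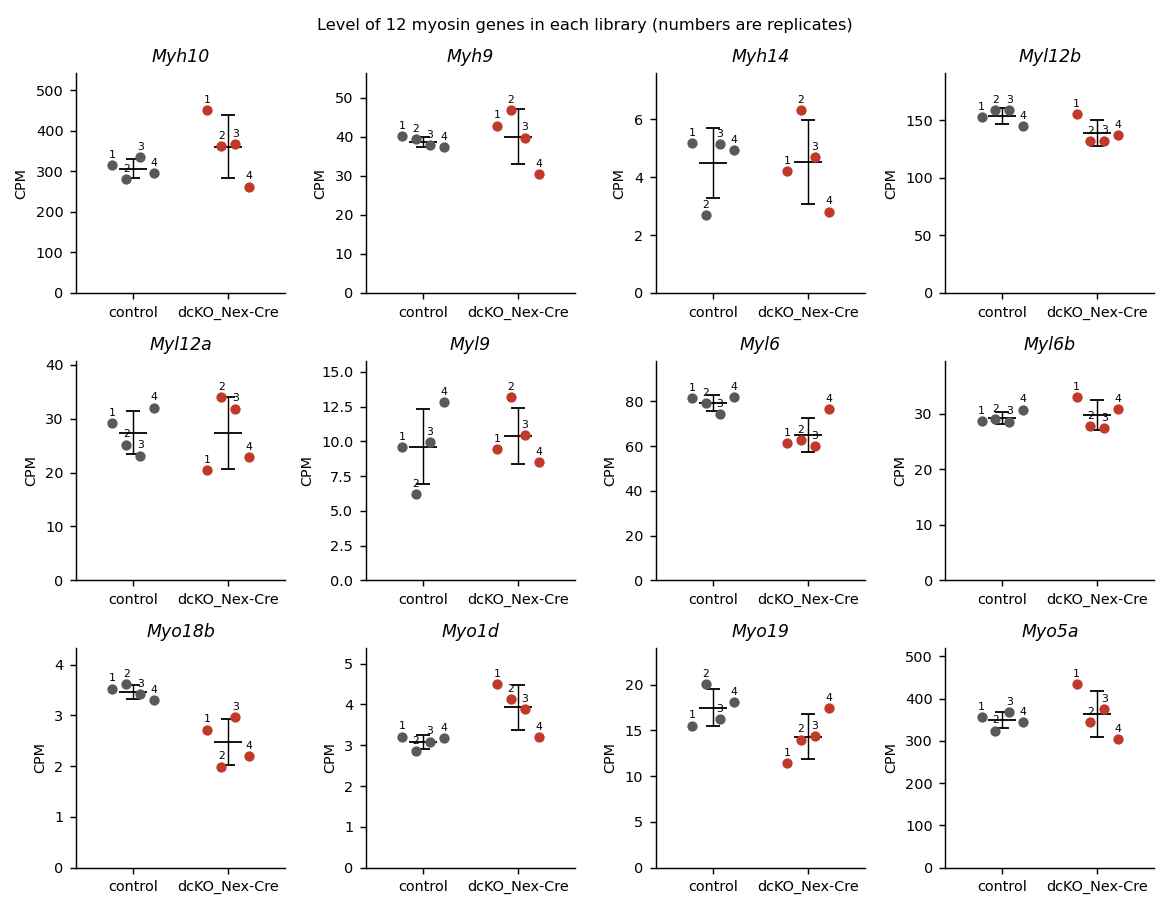
CPM of 12 members in each library (dots, numbered by replicate) with the mean and SD of 4 libraries, control in grey and dcKO_Nex-Cre in red, on axes that start at 0. *Myo18b* is the one gene here whose dcKO_Nex-Cre libraries all lie below the controls (1.99 to 2.97 against 3.30 to 3.61 CPM); for *Myh10* and *Myl6* it is replicate 4 that returns to or passes the control range.

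*Myo18b*, a myosin known from the sarcomeres of striated muscle, was low but steady in the control cortex at 3.53, 3.61, 3.42 and 3.30 CPM, and was at 2.72, 1.99, 2.97 and 2.19 CPM in dcKO_Nex-Cre replicates 1 to 4. Every dcKO_Nex-Cre library was below every control. The log2 fold change was -0.48 (SE 0.17, 95% interval -0.85 to -0.11), with an unadjusted p of 0.0158 and an adjusted p of 0.249 from edgeR. The exact permutation test gave p = 0.0286, the smallest possible here. Leaving out each library in turn gave -0.58 to -0.39, with an unadjusted p under 0.05 in all 8 fits and an adjusted p of 0.149 to 0.492 over all alternatives. With both control replicate 2 and dcKO_Nex-Cre replicate 4 left out, it was -0.41 and the unadjusted p from edgeR was 0.0553. The mean was 69.6 counts per library. Of the 10 skeletal muscle markers 7 could be tested, of which *Acta1* and *Ttn* were lower at an unadjusted p under 0.05. The summed level of the 10 markers was 45.2 to 60.2 CPM in the control and 33.01 to 53.8 CPM in the dcKO_Nex-Cre libraries. Most of that sum came from *Neb* and *Ryr1*, neither of them at an unadjusted p under 0.05. *Neb* averaged 21.4 CPM in the control and 20.9 CPM in the dcKO_Nex-Cre cortex, and *Ryr1* 20.2 and 15.96 CPM. *Acta1* and *Ttn* averaged 3.99 and 2.08 CPM in the control. *Tnnc2* was at 0 in the control, *Ckm* at no more than 0.11 CPM and *Myog* at no more than 0.09 CPM. Whether these markers have a part in the *Myo18b* value was not tested.

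*Myo19*, a motor on the outer membrane of mitochondria, was at 15.5, 20.03, 16.3 and 18.1 CPM in the control and at 11.4, 14.0, 14.4 and 17.5 CPM in the dcKO_Nex-Cre libraries. Replicates 1 to 3 were below every control and replicate 4 was inside the control range. The log2 fold change was -0.29 (95% interval -0.59 to 0.01, unadjusted p = 0.0541, edgeR adjusted p = 0.377). Without dcKO_Nex-Cre replicate 4 it was -0.39 with an adjusted p of 0.0675. *Znhit3* and *Pigw* on the other strand share 277 and 106 exon bases with *Myo19*, so reads of these genes could not be told apart without strand. *Myo18b* and *Myo19* stand, like the phosphatase inhibitor *Ppp1r14c*, among genes that the paper plots as lower in these same libraries, so none of the 3 is independent evidence of a direction.

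*Myo1d*, a class I motor that ties membranes to actin, was at 3.21, 2.85, 3.09 and 3.17 CPM in the control and at 4.49, 4.14, 3.88 and 3.20 CPM in dcKO_Nex-Cre replicates 1 to 4. Replicates 1 to 3 were above every control and replicate 4 was level with control replicate 1. The log2 fold change was 0.36 (SE 0.15, 95% interval 0.02 to 0.69), with an unadjusted p of 0.0394 and an adjusted p of 0.338 from edgeR. In 7 of the 8 fits that leave out 1 library the unadjusted p was no longer under 0.05, and without dcKO_Nex-Cre replicate 4 it was 0.0124 at a log2 fold change of 0.44. Of 6 oligodendrocyte lineage markers, *Pdgfra*, *Olig2*, *Sox10* and *Cspg4* were higher at an unadjusted p under 0.05, and *Cspg4* was called (log2 fold change 0.56, edgeR adjusted p = 0.0355). The summed marker level was 204 to 286 CPM in the control and 282 to 356 CPM in the dcKO_Nex-Cre cortex, with no marker at 0; whether the lineage has a part in the *Myo1d* value was not tested. In whole tissue, fewer cells of a type and less RNA per cell cannot be told apart, here or for any other gene.

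Among the other class I myosins *Myo1c*, which serves vesicle delivery, was at 24.1, 27.3, 23.95 and 25.6 CPM in the control and at 29.0, 22.5, 26.2 and 23.4 CPM in the dcKO_Nex-Cre cortex. The groups overlapped and the log2 fold change was 0.01 (95% interval -0.21 to 0.22). The long-tailed *Myo1e* was at 0.18 on the same scale. The blood cell motors *Myo1f* and *Myo1g* were at 0.16 and 0.04. *Myo1a*, the brush border motor, was at -0.43 and *Myo1h* at -0.49, with intervals from -1.05 to 0.19 and from -1.35 to 0.38. *Kctd10*, at 829.88 counts on average, covers 25.8% of the exon bases of *Myo1h* from the other strand, while *Myo1h* itself averaged 14.1 counts. Beside *Myo1f* and *Myo1g*, 3 of 8 microglia markers were higher and 1 lower at an unadjusted p under 0.05. *C1qb* was called higher (log2 fold change 0.46, edgeR adjusted p = 0.0422, groups without overlap). The lower one, *P2ry12*, was at -0.57 (edgeR adjusted p = 0.0596, groups without overlap). Of the 8 markers 5 were above 0 and 3 below. Summed marker levels were 105 to 121 CPM in the control and 109 to 146 CPM in the dcKO_Nex-Cre cortex, with no marker at 0. The part of microglia in the *Myo1f* and *Myo1g* values was not tested.

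For the cargo motors of classes V and VI no difference beyond the spread between libraries was seen. *Myo5a* was at 357, 324.5, 369 and 344.5 CPM in the control and at 434, 344, 375 and 304 CPM in dcKO_Nex-Cre replicates 1 to 4. Replicate 4 was the lowest library of all and replicate 1 the highest, and the log2 fold change was 0.06 (95% interval -0.17 to 0.30). *Myo5b*, the motor of recycling endosomes, was at a log2 fold change of 0.04, and the epithelial *Myo5c*, with 10.2 counts on average, at -0.29. *Myo6*, which walks toward the pointed end of actin and acts in endocytosis, was at 62.2, 49.6, 59.8 and 62.0 CPM in the control and at 62.0, 61.5, 70.5 and 50.7 CPM in the dcKO_Nex-Cre libraries. Control replicate 2 and dcKO_Nex-Cre replicate 4 were the low ones again, and the interval of the *Myo6* log2 fold change ran from -0.17 to 0.31.

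Class IX myosins carry in the tail a domain that switches off small GTPases. *Myo9b* was at 93.7, 125, 87.1 and 94.1 CPM in the control and at 75.1, 91.7, 90.0 and 109 CPM in the dcKO_Nex-Cre cortex. The libraries highest in each group were control replicate 2 and dcKO_Nex-Cre replicate 4, the same that were low for *Myo6*. Its log2 fold change was -0.13 (95% interval -0.42 to 0.16), and that of *Myo9a* was 0.01 with the narrowest interval of the members, -0.15 to 0.17. *Myo7a*, a motor of hair cell stereocilia, was at 36.8, 38.9, 36.6 and 35.3 CPM in the control and at 41.6, 40.4, 39.3 and 34.4 CPM in the dcKO_Nex-Cre cortex. For it the log2 fold change was 0.08 (95% interval -0.10 to 0.25), and 3 dcKO_Nex-Cre libraries lay above every control. *Myo10*, which builds filopodia, was at 0.11 (95% interval -0.24 to 0.46).

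*Myo18a*, which links the Golgi apparatus to actin, was the most abundant of the remaining unconventional myosins, at 154, 153, 168 and 154 CPM in the control and at 209, 177, 178 and 131 CPM in the dcKO_Nex-Cre libraries. The first 3 dcKO_Nex-Cre libraries were above every control and replicate 4 below every control, the order also seen in *Myh10*. The log2 fold change was 0.14 (95% interval -0.12 to 0.41, edgeR adjusted p = 0.612), and 0.26 without replicate 4 (adjusted p = 0.0627). *Myo16*, a myosin known mainly from brain, was at -0.01, and *Myo3b*, a kinase-bearing stereocilia motor, at 0.21. *Myo3b* varied most, at 1.88, 2.41, 0.58 and 1.72 CPM in the control and at 0.49, 5.02, 1.32 and 0.62 CPM in dcKO_Nex-Cre replicates 1 to 4, so that its interval ran from -1.32 to 1.73 on the log2 scale. The highest value is that of dcKO_Nex-Cre replicate 2, the library highest in striatal and meningeal markers, and without it the log2 fold change of *Myo3b* was -1.01 (adjusted p = 0.492). Of 6 striatal markers only *Ppp1r1b* had an unadjusted p under 0.05, and it was called higher (log2 fold change 0.96, edgeR adjusted p = 0.04). It was at 46.05 to 88.3 CPM in the dcKO_Nex-Cre libraries, against 28.5 to 33.5 CPM in the control. *Drd1*, *Drd2*, *Six3*, *Gpr6* and *Adora2a* had overlapping groups, with log2 fold changes of -0.01, 0.45, 0.19, 0.21 and 0.36. No striatal marker was at 0, and none of the 7 meningeal markers had an unadjusted p under 0.05. The part of these tissues in the *Myo3b* value was not tested.

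Muscle heavy and light chains were near the bottom of what the libraries could measure. The smooth muscle heavy chain *Myh11* averaged 12 counts and was at 0.46, 0.38, 0.38 and 0.62 CPM in the control and 0.52, 0.73, 0.66 and 0.17 CPM in the dcKO_Nex-Cre cortex, with an interval of the log2 fold change from -0.63 to 1.07. The groups overlapped. *Myh7*, the slow and beta-cardiac heavy chain and the highest striated one, was at 1.65, 2.46, 2.09 and 1.94 CPM in the control and at 2.38, 3.03, 1.82 and 1.07 CPM in the dcKO_Nex-Cre libraries, with a log2 fold change of 0.05 (95% interval -0.56 to 0.67). Its neighbour *Myh6*, the alpha-cardiac chain with which it may share reads, was at 0.14, *Myh7b* at -0.19 and the embryonic chain *Myh3* at -0.51 (95% interval -1.48 to 0.45). *Myl4*, an atrial and embryonic light chain, was at 2.11, 1.09, 1.67 and 1.15 CPM in the control and at 1.33, 1.07, 1.73 and 2.02 CPM in the dcKO_Nex-Cre cortex. Its groups overlapped almost wholly, with a log2 fold change of 0.01 (95% interval -0.61 to 0.62). Of 10 smooth muscle and pericyte markers 9 could be tested and *Rgs5* was lower at an unadjusted p under 0.05, with summed levels of 191 to 263 CPM in the control and 198 to 221 CPM in the dcKO_Nex-Cre cortex; their part in *Myl9* and *Myh11* was not tested. Below the count minimum were 17 further genes, led by *Myo15* at 9.38 counts on average and including the fast skeletal heavy chains *Myh1*, *Myh2* and *Myh4*.

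One dcKO_Nex-Cre library set the range of many members. Replicate 4 was the lowest of its group for 24 of 36 members (66.7%), against 37.8% of all genes tested, and for 11 of the 13 heavy chains with at least 500 counts on average (84.6%), against 44.7% of all genes at that count. In the control, replicate 2 was the lowest library for 15 members (41.7%, against 34.8% of all genes), and in 14 members both were the lowest of their group. The light chains had no such order: replicate 4 was lowest for 1 of 6. Without replicate 4 the log2 fold change was higher for 29 members and lower for 7.

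**Figure D4:**
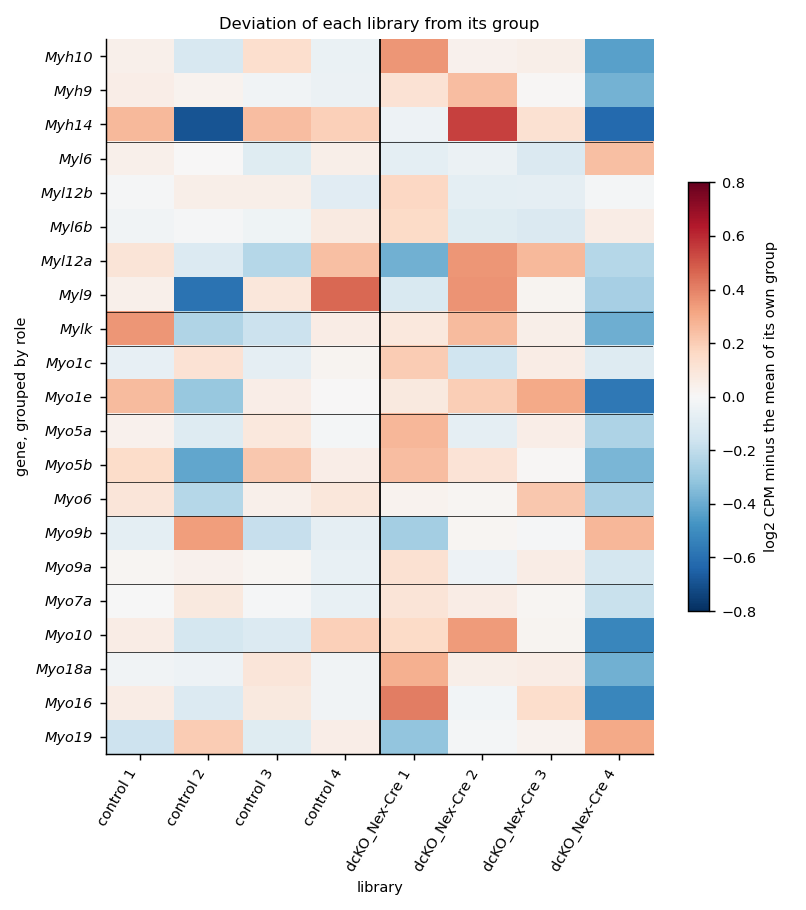
Log2 CPM of each library minus the mean of its own group (colour) for 21 members with at least 100 counts on average, in rows grouped by role; the vertical line parts control from dcKO_Nex-Cre libraries. The last column, dcKO_Nex-Cre replicate 4, is blue for most heavy chains and red for *Myl6*, *Myo9b* and *Myo19*, and control replicate 2 is strongly blue for *Myh14* and *Myl9*.

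Without dcKO_Nex-Cre replicate 4, edgeR called 2 members, *Myh10* higher and *Myl6* lower, and 7.73% of all genes tested. At an unadjusted p under 0.05 there were then 8 members (*Myl6*, *Myo18b* and *Myo19* lower and *Myh10*, *Myo18a*, *Myo1d*, *Myo1e* and *Myo10* higher), that is 8 of 36 against 28.2% of all genes. Within lane 2, with 4 controls and 2 dcKO_Nex-Cre libraries, 0 members were called against 1.48% of all genes, and 8 had an unadjusted p under 0.05 against 23.5%. *Myh10* was at 0.41 (adjusted p = 0.0838) and *Myl6* at -0.35 (adjusted p = 0.0588) within that lane. When control replicate 2 was left out as well as dcKO_Nex-Cre replicate 4, a fit added after the values were seen, *Myh10* (0.32) and *Myl6* (-0.36) were called again, among 11% of all genes, and 8 of the 34 members that could be tested had an unadjusted p under 0.05 against 28.4%. In none of these fits was the share of members at an unadjusted p under 0.05 above that of all genes.

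**Figure D5:**
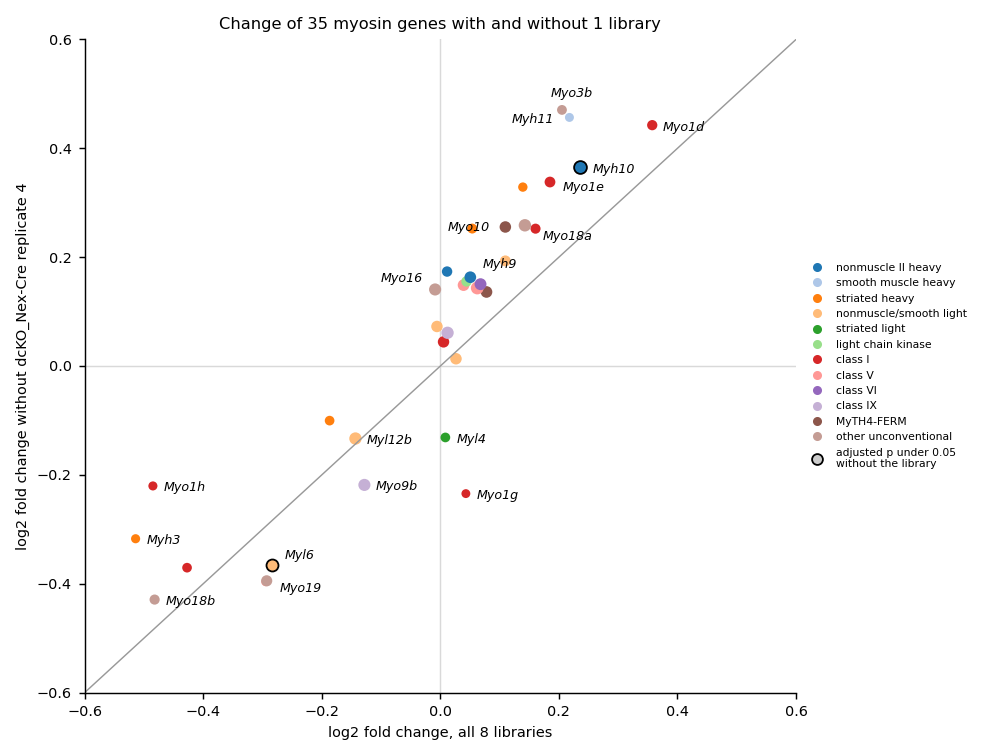
Log2 fold change of 35 members over all 8 libraries (x axis) and without dcKO_Nex-Cre replicate 4 (y axis), coloured by role, with dot size growing with the mean count; the grey line marks equal values. Most dots lie above the line, and the ringed genes, *Myh10* (0.24 and 0.36) and *Myl6* (-0.28 and -0.36), pass the adjusted threshold without that library.

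Genes around the myosins were counted in 7 lists of 76 genes, of which 69 could be tested. Called was 1 of the 69, beside 0.884% of all genes tested: *Ppp1r14c*, an inhibitor of the myosin phosphatase, was at 84.9, 77.2, 77.5 and 95.02 CPM in the control and at 51.9, 47.9, 51.0 and 60.4 CPM in the dcKO_Nex-Cre cortex. Every dcKO_Nex-Cre library was below every control, and *Ppp1r14c* fell by 0.67 on the log2 scale (SE 0.10, edgeR adjusted p = 0.015). The adjusted p was 0.0771 without control replicate 1, 0.064 without control replicate 4 and 0.069 without dcKO_Nex-Cre replicate 3, at log2 fold changes of -0.65, -0.60 and -0.65. Over the lists, 8 of 69 genes were lower and 3 higher at an unadjusted p under 0.05, beside 7.05% and 6.59% of all genes tested, and the median log2 fold change was 0.01. Without dcKO_Nex-Cre replicate 4, 7 of 70 genes were called, beside 7.73% of all genes. Next to *Ppp1r14c*, these were the phosphatase subunits *Ppp1cb* (log2 fold change -0.31, adjusted p = 0.0281) and *Ppp1r12b* (0.29, adjusted p = 0.0292), and *Calm2*, *Rab11a*, *Svil* and *Shroom3*, with adjusted p of 0.0341, 0.0222, 0.0495 and 0.0494. *Shroom3*, which recruits Rock kinases to actin, was then at 0.52, and at 0.32 with all libraries (adjusted p = 0.549). Without that library and control replicate 2, 7 of 69 were called beside 11% of all genes. Among them were *Cit* (0.44, adjusted p = 0.0222) and *Tpm4* (-0.24, adjusted p = 0.0495) but not *Svil* and *Shroom3*. With all 8 libraries *Ppp1cb* was at -0.20 (edgeR adjusted p = 0.417) and *Ppp1r12b* at 0.14 (adjusted p = 0.69). In that fit *Cit* was at 0.28 (adjusted p = 0.387) and *Tpm4* at -0.17 (adjusted p = 0.406).

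None of the 14 genes of the list around *Rhoa* and the kinases *Rock1* and *Rock2*, which act upstream of the regulatory light chain, had an unadjusted p under 0.05, and neither did the 10 tested among the other kinases of that chain. Calmodulin, which serves as light chain of many unconventional myosins, was represented by 4 genes, all below 0, with *Calm2* at a log2 fold change of -0.27 (edgeR adjusted p = 0.179, and -0.32 without dcKO_Nex-Cre replicate 4) and the rare *Calml4* at -1.65 (adjusted p = 0.216). *Calml4* was at 3.16, 1.31, 1.42 and 4.67 CPM in the control and at 0.29, 1.76, 0.83 and 0.51 CPM in dcKO_Nex-Cre replicates 1 to 4. Its high libraries, control replicates 4 and 1 and dcKO_Nex-Cre replicate 2, were also the 3 with the most choroid plexus marker RNA (1336, 740 and 557 CPM). Of 6 choroid plexus markers 4 could be tested, all of them below 0 and none at an unadjusted p under 0.05, with *Kcnj13* at 0 in control replicate 2; their part in the *Calml4* value was not tested. Among folding and filament partners the myosin chaperone *Unc45a* was at -0.18 (adjusted p = 0.308) and supervillin (*Svil*), which binds nonmuscle myosin II, at 0.41 (adjusted p = 0.166, and 0.44 without dcKO_Nex-Cre replicate 4). Of actin and tropomyosin genes, *Actg1* was at -0.50 and *Tpm1* at -0.19, with adjusted p of 0.334 and 0.339. *Actg1* averaged 64.9 counts beside 32371.5 for *Actb*; how reads that match several places were counted is not given in the sources used here, so the level of a gene with near copies, light chains included, may be understated. Of 19 cargo adaptors tested, *Whrn* (-0.43) and *Rab11a* (-0.26) were lower and *Calcoco1* (0.22) and *Rab11fip2* (0.23) higher at an unadjusted p under 0.05, none of them called over all 8 libraries. Without dcKO_Nex-Cre replicate 4 *Rab11a* was called at -0.36, and without control replicate 2 as well at -0.32 (adjusted p = 0.0114). The marker list of cortical projection neurons, the cells that express the Cre, had 1 gene called lower of 9 (*Emx1*, log2 fold change -0.60, edgeR adjusted p = 0.0332).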

How the data were processed

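Raw counts per Ensembl gene, deposited by the authors for each of 8 libraries without normalization or filtering, were analysed. Per the labels, RNA was extracted from whole tissue with TRIzol and libraries were made with an Illumina TruSeq kit. The submitters' notes name mm10; the aligner, counting program and strand setting are not given in the sources used here. Of 48709 genes, 48349 matched GENCODE M21 by identifier. In R 4.3.3 with edgeR 4.0.16, filterByExpr kept 16287 genes, libraries were normalized by TMM, and groups were compared by the robust quasi-likelihood F test without covariates, with Benjamini-Hochberg adjustment over all genes tested and a threshold of 0.05. Permutation tests of CPM were exact and two-sided over 70 regroupings. Alternatives used DESeq2 1.42.0 and limma 3.58.1. The fit was tested on simulated data. Python 3.11.15 with pandas 2.3.3 made the tables.

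Members and lists were chosen with earlier results of these data known. Every member is named except 1, which like 1 marker gene is not reported here but stays in the counts of members; library values are given for members at an unadjusted p under 0.05 or without overlap, the nonmuscle myosin II chains, the highest reported gene of each role, *Myo18b* and *Myo19*. Of the lists, genes called and then genes at an unadjusted p under 0.05 are named, at most 12. Added after their values were seen were *Actb*, the named microglia and striatal markers, *Kcnj13* and the partner genes called without dcKO_Nex-Cre replicate 4. No pair of libraries of a group differed by so little that they could be copies, the lowest chi-square per degree of freedom being 3.52.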

Additional observations from a re-analysis of the deposited data

Results flagged for a closer look

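Over the 36 members, the total counts and the mitochondrial shares, 76 groups of 4 libraries were examined for a single library far from the other 3 of its group, and 2 were found, where chance alone gives about 1 in 20, or 3.8. Control replicate 2 had 2.68 CPM of *Myh14*, against 4.93 to 5.17 CPM in the other controls. Control replicate 3 had 168 CPM of *Myo18a*, against 153 to 154 CPM in the other controls.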

How the results depend on the processing

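The precision is set by 4 libraries a group, 1 of which (dcKO_Nex-Cre replicate 4) decides whether members are called, and by low counts for muscle chains; lane and genotype cannot be told apart for dcKO_Nex-Cre replicates 3 and 4. Of 272 member values under 8 alternatives that change the tool, the filter, the scaling or the block or leave out 2 libraries, 255 kept their direction and 17 did not, and of 279 values with 1 library left out 234 did; 16 members kept their sign in every fit. The cause of a change was not tested.

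Counts moved as follows. With 1 library left out there were 0 to 2 members called, 2 to 8 members at an unadjusted p under 0.05, 0 to 7 genes of the lists called, 1 to 3 members lower and 0 to 5 members higher without overlap, the highest values being those without dcKO_Nex-Cre replicate 4, where 14.1% and 13.1% of all genes were lower and higher without overlap. DESeq2's Wald test called 2 genes of the lists, *Ppp1r14c* and *Calm2*. Within lane 2 there were 8 members at an unadjusted p under 0.05, 3 lower without overlap and 8 higher (18.3% and 17.7% of all genes). Without control replicate 2 and dcKO_Nex-Cre replicate 4, an alternative chosen after seeing the data, 2 members were called, 8 had an unadjusted p under 0.05, 7 genes of the lists were called, and 3 members were lower and 5 higher without overlap (17.3% and 16.4% of all genes). Genes called over the whole table numbered 144 with all libraries, 474 by DESeq2's Wald test, 259 without a filter, 248 within lane 2, 1278 without dcKO_Nex-Cre replicate 4, 1794 without that library and control replicate 2, and 18 to 87 with any other library left out.

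In the labels, same-numbered samples are linked by nothing but the number. The correlations of their deviations from the group means were 0.126, 0.018, 0.135 and -0.138. Over all pairs of a control and a dcKO_Nex-Cre library they ran from -0.292 to 0.371. These values do not settle whether samples were paired. With the replicate block 0 members were called, 3 had an unadjusted p under 0.05, 54 genes of the whole table were called, and *Myo1c* -0.0003, *Myh14* -0.011, *Myo3b* -0.18 and *Myh7* -0.016 changed sign.

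Members of opposite sign were *Myl12a* 0.0012 by DESeq2's Wald test, *Myo3b* -0.26 and *Myl4* -0.0047 by limma-voom, *Myl12a* 0.0037 and *Myo16* 0.0014 without a filter on low counts, *Myo1c* -0.0009 and *Myl4* -0.0021 with at least 10 counts in every library, *Myo1g* -0.29, *Myo16* 0.16 and *Myl4* -0.32 within lane 2, *Myl12a* 0.035, *Myo16* 0.11 and *Myl4* -0.25 without control replicate 2 and dcKO_Nex-Cre replicate 4. With 1 library left out, these members took both signs: *Myo1c* -0.069 to 0.061, *Myo1g* -0.23 to 0.22, *Myl12a* -0.13 to 0.11, *Myo16* -0.16 to 0.14, *Myh7* -0.17 to 0.25, *Myo9b* -0.22 to 0.005, *Myo5b* -0.072 to 0.15, *Mylk* -0.038 to 0.18, *Myh14* -0.19 to 0.17, *Myl9* -0.0395 to 0.28, *Myl4* -0.13 to 0.22, *Myo3b* -1.01 to 0.55, *Myo9a* -0.0302 to 0.061, *Myh6* -0.18 to 0.33, *Myo5a* -0.032 to 0.14, *Myl6b* -0.028 to 0.064, *Myo10* -0.0053 to 0.26, *Myh9* -0.031 to 0.16 and *Myo6* -0.0062 to 0.15.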
